A study of Canis lupus familiaris with 25 samples.

Results

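Benign and malignant tumors from neighboring glands of the canine anal region were compared here across all genes: 10 hepatoid gland adenomas (HGA) against 11 primary apocrine gland anal sac adenocarcinomas (AGASAC). The tumors were chosen by their diagnosis and as primary tumors, which gave 21 of the 25 samples in the series. The other 4 samples, metastases of AGASAC with raw counts in the same table, were not used here. All tumors were surgically removed, formalin-fixed and paraffin-embedded diagnostic samples of pet dogs of several breeds, numbered separately by tumor. The dogs with HGA were 8 to 14 years old (median 12) and comprised 4 intact males, 1 neutered male, 2 intact females and 3 neutered females. The dogs with AGASAC were 8 to 12.5 years old (median 10) and comprised 6 neutered males, 2 intact females and 3 neutered females. Intact males occurred only among the dogs with HGA.

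Hepatoid glands, also called perianal or circumanal glands, are modified sebaceous glands of dogs. Their name refers to the large, eosinophilic, hepatocyte-like look of their cells, and their growth is known to respond to androgens. The anal sac is lined by a keratinizing epithelium and surrounded by apocrine glands, in which luminal cells secrete protein-rich fluid and myoepithelial cells lie beneath them. Sebaceous cells fill with neutral lipid and burst to release it, whereas apocrine cells export proteins through the endoplasmic reticulum and the Golgi. Simple keratins such as keratin 8, 18 and 19 are typical of luminal cells, and keratin 5 and 14 of basal cells of stratified and sebaceous epithelium.

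Each library held 3′ ends of polyadenylated RNA. The total was 1562347 to 6389555 counts in HGA (median 2506080) and 2581453 to 4218340 in AGASAC (median 2950460). Levels are given in CPM, the count divided by its TMM-scaled library total and multiplied by 1000000; since 1 fragment was read per transcript, CPM does not depend on transcript length. A count of 0 in a library allowed a level of up to 0.525 to 1.90 CPM in HGA and 0.701 to 1.04 CPM in AGASAC, which covers counting error only. The 10 most abundant genes took 10.6% to 25.6% of the counts of an HGA and 6.35% to 10.0% of those of an AGASAC. Because the tumors were bulk tissue, fewer cells of a type and less RNA per cell cannot be told apart.

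The first principal component carried 51.6% of the variance of log2 CPM and placed the HGA at −105.0 to −60.6 and the AGASAC at 74.3 to 87.2. The second component carried 6.84% and set HGA 10 (−110.2) apart from the other tumors. The correlation with the median profile of its own tumor type was 0.792 for HGA 10, 0.848 for HGA 4 and 0.884 for HGA 9, against 0.915 to 0.954 for the other 7 HGA and 0.877 to 0.928 for the AGASAC. The correlation with the median of the other tumor type was at most 0.625 in every tumor, across genes, which are not independent replicates. HGA 10 was also the only neutered male with HGA, the only HGA of its RNA extraction batch and the only one of naming series B, so these cannot be told apart from the tumor itself. The naming series are 2 patterns in the names of the sequencing files in the study's sample list, and they nearly followed tumor type. Series A held 9 HGA and 3 AGASAC and series B 1 HGA and 7 AGASAC, while that of AGASAC 4 was not known here. Results that rest on HGA 10 are given with and without it.

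**Figure D1:**
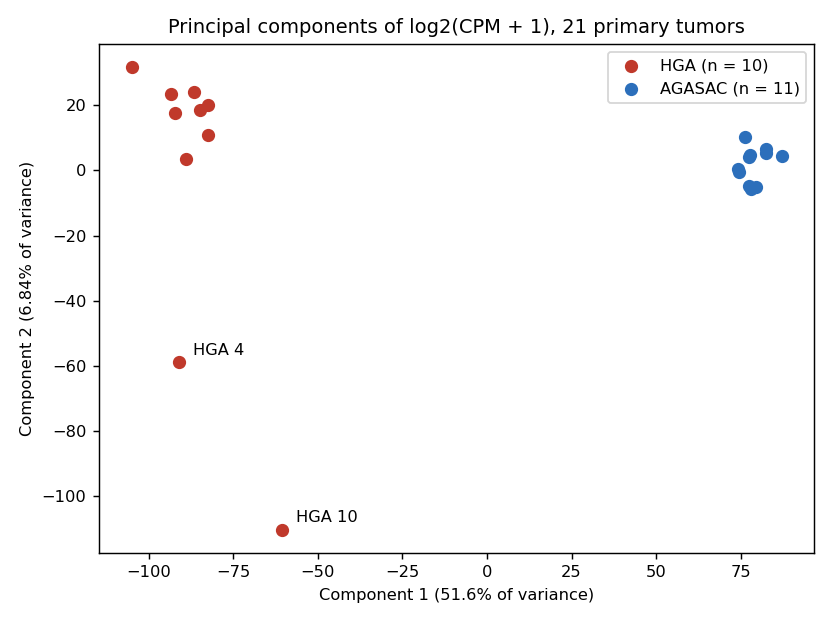
Principal components of log2 CPM over the genes tested, with PC1 on the horizontal and PC2 on the vertical axis and 1 point per tumor. The HGA (n = 10) lie at −105.0 to −60.6 on PC1 and the AGASAC (n = 11) at 74.3 to 87.2, while HGA 10 lies at −110.2 on PC2.

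In “HGA versus AGASAC”, 3032 of the 12070 genes tested were called, that is 25.1%, of which 1523 were higher (12.6%) and 1509 lower (12.5%) in HGA. A call required an adjusted p of at most 0.05 in edgeR's quasi-likelihood F test with Benjamini-Yekutieli adjustment and a log2FC of at least 1 in size, where log2FC is the level in HGA relative to AGASAC and is followed by its standard error. In 1084 of the called genes (8.98% of the genes tested), the CPM ranges of the tumor types did not overlap (9.27% of all genes tested, called or not), with 546 higher and 538 lower in HGA. A log2FC of at least 3 in size was found for 868 called genes, 388 higher and 480 lower in HGA. For 35 genes every AGASAC had at most 3 counts, and for 51 genes every HGA had at most 3 counts. For such genes the fold is given as a lower bound, computed from the mean CPM of the higher type against 3 counts in the library where these are worth most CPM. The count filter kept a gene only if at least 10 tumors, the number of HGA, passed its cutoff. A gene with at most 3 counts in every AGASAC was thus tested only if all 10 HGA passed. Its missing overlap was therefore set by the filter, for all 35 such genes. Of the 51 genes with at most 3 counts in every HGA, 40 did not overlap. With scaling by library size alone, the median log2FC of all genes moved from −0.03 to −0.32, and 1065 genes were called higher and 2135 lower in HGA. Within naming series A, 2156 genes were called, with 1134 higher and 1022 lower in HGA. Within single RNA extraction batches, 262 genes were called between 3 HGA and 3 AGASAC, 637 between 3 HGA and 2 AGASAC and 338 between 2 HGA and 3 AGASAC. Without HGA 10, 3373 genes were called, and 2914 of the 3032 were called in the same direction. The counts of list members given from here on can be read against the 12.6% of all genes called higher and the 12.5% called lower.

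**Figure D2:**
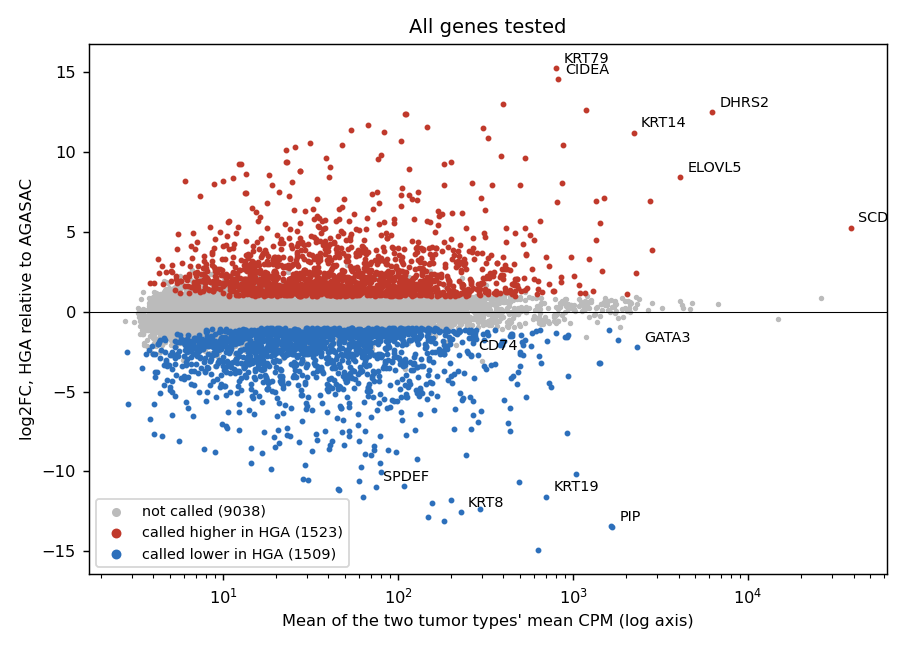
The log2FC of each gene tested (vertical axis) against the mean CPM of both tumor types (horizontal log axis), with called genes in color and selected genes named. The 1523 genes higher and 1509 genes lower in HGA spread over low and high levels, genes with at most 3 counts in every tumor of a type are drawn at fitted values that are no bounds, and the most abundant of the called genes, SCD, lies at 5.27.

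Several of the most abundant transcripts differed. SCD encodes the desaturase that introduces the double bond of oleic acid, and it was the most abundant gene in HGA at 2208 to 115718 CPM (median 76663) in HGA and 1148 to 2763 CPM (median 1814) in AGASAC (log2FC 5.27 ± 0.45, edgeR adjusted p = 1.94e-08). All HGA lay above all AGASAC except HGA 10, whose 2208 CPM fell among the AGASAC. The short-chain dehydrogenase DHRS2 reached 489.8 to 22707 CPM (median 14343) in HGA and 0 to 8.29 CPM (median 0.548) in AGASAC, without overlap (log2FC 12.49 ± 1.00, edgeR adjusted p = 7.00e-09). ELOVL5, an elongase of polyunsaturated fatty acids, stood at 324 to 13976 CPM (median 9219) in HGA and 5.95 to 107 CPM (median 16.8) in AGASAC, again without overlap (log2FC 8.42 ± 0.72, edgeR adjusted p = 2.01e-08, 9.04 without AGASAC 4). ECHDC1, a decarboxylase that removes ethylmalonyl-CoA during lipid synthesis, reached 28.4 to 10268 CPM (median 6444) in HGA and 18.4 to 58.4 CPM (median 44.6) in AGASAC (log2FC 6.92 ± 0.62, edgeR adjusted p = 3.33e-08), and HGA 10 at 28.4 CPM was again within the AGASAC. Among the most abundant genes of AGASAC were GATA3, a transcription factor of luminal epithelia, and PIP, the prolactin-induced protein of apocrine secretions. The ribosomal transcripts RPS28 (log2FC 0.51), RPLP1 (log2FC 0.56) and RPL13A (log2FC 0.16) were among the most abundant of both types and were not called (edgeR adjusted p = 1 for each).

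Of 9 keratin genes tested, 3 were higher and 4 lower in HGA without overlap between the tumor types. KRT8 was listed at 0 to 0.459 CPM (median 0) in HGA but at 227 to 749 CPM (median 406) in AGASAC, thus at least 239.6-fold lower in HGA. KRT19 was at 0 to 1.61 CPM (median 0.215) in HGA and 715 to 2097 CPM (median 1322) in AGASAC (log2FC −11.59 ± 0.49, edgeR adjusted p = 1.07e-13). KRT18, the partner of keratin 8, was at 0 to 32.2 CPM (median 0.197) in HGA and 355 to 890.3 CPM (median 517) in AGASAC (log2FC −6.88 ± 0.85, edgeR adjusted p = 5.16e-06, −9.01 without HGA 1), and KRT7 at 0.861 to 153 CPM (median 59.8) in HGA and 238 to 1182 CPM (median 572) in AGASAC (log2FC −3.36 ± 0.51, edgeR adjusted p = 8.19e-05). All 4 tested members of the simple keratins were thus lower in HGA, with a median log2FC of −9.23, or −7.39 with KRT8 at its bound (−10.46 without HGA 1 and −6.71 within naming series A). Their summed level, untested members included, was 1.72 to 157 CPM in HGA and 1777 to 4068 CPM in AGASAC. The opposite order held for KRT14 at 2308 to 11928 CPM (median 3394) in HGA and 0 to 9.22 CPM (median 0.313) in AGASAC (log2FC 11.23 ± 0.85, edgeR adjusted p = 2.84e-09, 12.02 without AGASAC 9) and its partner KRT5 at 419.9 to 2318 CPM (median 831) in HGA and 0 to 17.95 CPM (median 0.691) in AGASAC (log2FC 7.92 ± 0.85, edgeR adjusted p = 6.22e-07). No tumor of one type reached the range of the other for any of these 6 keratins.

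The stratified and basal epithelium list followed KRT14 and KRT5: 19 of 26 tested members were called higher and 1 lower (1 to 2 with 1 tumor left out) in HGA, with a median log2FC of 3.57, 2 being lower without HGA 10, and 16 of the higher members did not overlap. TP63, the transcription factor that maintains basal cells, was at 157 to 533 CPM (median 196) in HGA and 0 to 6.91 CPM (median 1.59) in AGASAC (log2FC 7.01 ± 0.52, edgeR adjusted p = 2.24e-09). TRIM29, a basal-cell member of the TRIM family, was at 94.7 to 332 CPM (median 149) in HGA and at 0 to 0.287 CPM (median 0) in AGASAC, thus at least 161-fold higher in HGA. The desmosomal cadherin DSG3 was at 31.5 to 111 CPM (median 44.1) in HGA and 0 to 0.822 CPM (median 0) in AGASAC, thus at least 52.96-fold higher in HGA, and DSG1, its counterpart in upper layers, was at least 281-fold higher in HGA. LGALS7, the galectin of stratified epithelia, was at 37.9 to 1481 CPM (median 597) in HGA and 0 to 1.73 CPM (median 0) in AGASAC (log2FC 10.86 ± 0.69, edgeR adjusted p = 1.88e-10, 11.52 without AGASAC 5); its near-identical copy LGALS7B can share reads with it, so the split between them is uncertain. The called member in the other direction was DST, a linker of keratin filaments to hemidesmosomes (log2FC −1.77 ± 0.32, edgeR adjusted p = 9.18e-04). The summed level was 7366 to 19164 CPM in HGA and 936 to 1920.4 CPM in AGASAC.

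Members of the cornification list were called in part: 9 of 15 tested members were called higher and 1 lower in HGA, with a median log2FC of 1.56 (4.24 within naming series A). With scaling by library size alone, 5 were called higher, and with 1 tumor left out 7 to 12. TGM5, a transglutaminase that crosslinks the cornified envelope, was at 7.75 to 432 CPM (median 241) in HGA and at 0 CPM in every AGASAC, thus at least 214-fold higher in HGA. The epidermal lipase LIPM was at 123 to 386 CPM (median 183) in HGA and 0 to 5.18 CPM (median 0) in AGASAC (log2FC 8.95 ± 0.70, edgeR adjusted p = 4.07e-09, 12.48 without AGASAC 5) and the protease inhibitor SPINK5 at 8.48 to 124 CPM (median 72.6) in HGA and 0 to 1.73 CPM (median 0) in AGASAC (log2FC 7.05 ± 0.61, edgeR adjusted p = 2.22e-08). DMKN, a secreted epidermal protein, was lower in HGA (log2FC −4.01 ± 0.82, edgeR adjusted p = 0.00318), with overlapping ranges. Of the 47 members present in the table only 15 had counts enough to be tested, and KRT1, IVL and LOR, which define terminally differentiated epidermis, were among the untested. KRT10 was tested but not called (log2FC 0.55 ± 0.43, edgeR adjusted p = 1).

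Junction and surface genes of gland epithelium were mixed. In the luminal gland epithelium list 1 of 19 tested members was called higher (0 to 1 with 1 tumor left out) and 6 lower in HGA, with a median log2FC of −1.01. CLDN7 was at 0 to 4.93 CPM (median 0.439) in HGA and 43.6 to 90.9 CPM (median 76.4) in AGASAC (log2FC −5.73 ± 0.49, edgeR adjusted p = 1.78e-08, −6.49 without HGA 6) and AGR2, a protein disulfide isomerase of mucus-secreting cells, at 0 to 3.79 CPM (median 0.783) in HGA and 19.3 to 127 CPM (median 49.97) in AGASAC (log2FC −5.72 ± 0.54, edgeR adjusted p = 8.36e-08). The membrane protease PRSS8 (log2FC −3.01 ± 0.24, edgeR adjusted p = 6.17e-09) and the potassium channel KCNK5 (log2FC −5.32 ± 0.49, edgeR adjusted p = 5.27e-08) were lower without overlap as well. EPCAM, the epithelial adhesion molecule, was at 299.8 to 625 CPM (median 503) in HGA and 645 to 2626 CPM (median 1327) in AGASAC (log2FC −1.46 ± 0.22, edgeR adjusted p = 9.32e-05), so that it was present in every tumor. CLDN4 was at 77.05 to 1402 CPM (median 969.8) in HGA and 641 to 1405 CPM (median 849) in AGASAC and was not called (log2FC −0.04 ± 0.30, edgeR adjusted p = 1). CLDN1, a claudin of epidermal tight junctions, was higher in HGA (log2FC 4.55 ± 0.34, edgeR adjusted p = 2.59e-09).

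**Figure D3:**
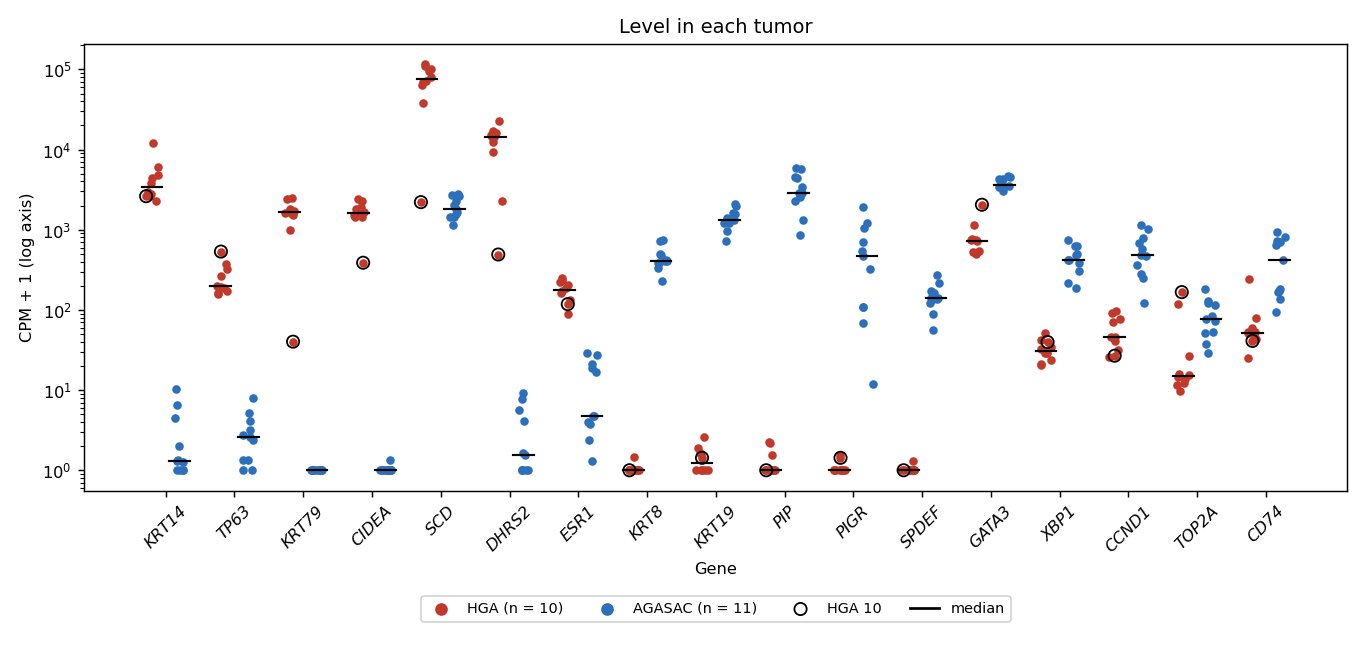
CPM of 17 genes on a log scale with 1 point per tumor (HGA n = 10, AGASAC n = 11), horizontal bars at the medians and a ring around HGA 10. KRT14, TP63, KRT79 and CIDEA lie higher in every HGA than in any AGASAC, KRT8, KRT19, PIP, PIGR and SPDEF lie lower in every HGA, and HGA 10 lies among the AGASAC for SCD.

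The transcription factors of luminal glands and of squamous and sebaceous epithelium were for the most part called in opposite directions. In the luminal list 4 of 26 tested members were called higher and 13 lower in HGA, with a median log2FC of −2.30 (−1.40 within naming series A). SPDEF, a factor of secretory cell differentiation, was at 0 to 0.297 CPM (median 0) in HGA and at 55.6 to 274 CPM (median 138) in AGASAC, thus at least 78.5-fold lower in HGA. BHLHA15, also called MIST1, which drives secretory architecture, was at 0 to 0.418 CPM (median 0) in HGA and 4.83 to 148 CPM (median 17.3) in AGASAC, thus at least 20.7-fold lower in HGA. TFAP2B was at 24.7 to 72.6 CPM (median 61.1) in HGA and 715 to 2095 CPM (median 1493) in AGASAC (log2FC −4.71 ± 0.23, edgeR adjusted p = 1.55e-12), and the related TFAP2C (log2FC 3.29 ± 0.52, edgeR adjusted p = 1.43e-04) and TFAP2A (log2FC 1.28 ± 0.23, edgeR adjusted p = 7.90e-04) went the other way, each without overlap. GATA3 was at 494 to 2048 CPM (median 726) in HGA and 3047 to 4683 CPM (median 3599) in AGASAC (log2FC −2.21 ± 0.24, edgeR adjusted p = 7.21e-07), and the highest HGA was HGA 10. MYB (log2FC −7.44 ± 0.64, edgeR adjusted p = 2.08e-08, −8.04 without HGA 7) and SIX4 (log2FC −5.71 ± 0.74, edgeR adjusted p = 1.03e-05, −8.15 without HGA 10) were also lower in HGA without overlap. SOX9, a factor of sebaceous and follicular progenitors as well as of glands, was higher in HGA (log2FC 3.48 ± 0.59, edgeR adjusted p = 3.76e-04), as was IRX2 (log2FC 3.64 ± 0.63, edgeR adjusted p = 4.36e-04).

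In the squamous and sebaceous list 10 of 25 tested members were called higher and 3 lower in HGA, with a median log2FC of 0.82. ZNF750, which promotes terminal differentiation of keratinocytes, was at 29.7 to 124 CPM (median 56.2) in HGA and 0 to 4.14 CPM (median 0) in AGASAC (log2FC 6.44 ± 0.64, edgeR adjusted p = 1.87e-07, 7.30 without AGASAC 2), and BCL11A was at 32.9 to 130.3 CPM (median 64.2) in HGA and 0 to 19.6 CPM (median 0.274) in AGASAC (log2FC 4.97 ± 0.77, edgeR adjusted p = 1.09e-04, 6.90 without AGASAC 6). The members lower in HGA were EHF (log2FC −5.69 ± 0.97, edgeR adjusted p = 3.82e-04), MSX2 (log2FC −5.15 ± 0.69, edgeR adjusted p = 1.64e-05) and OVOL2 (log2FC −1.35 ± 0.29, edgeR adjusted p = 0.00547), which are also found in glandular epithelium, while OVOL1 was not called (log2FC −0.14 ± 0.34, edgeR adjusted p = 1). Of 13 HOX genes tested, 3 were higher and 2 lower (1 to 3 with 1 tumor left out) in HGA. HOXD9 (log2FC 4.63 ± 0.68, edgeR adjusted p = 5.24e-05, 5.83 without AGASAC 3) and its neighbor HOXD8 (log2FC 3.36 ± 0.62, edgeR adjusted p = 0.00106) were higher, and HOXA7 (log2FC −3.10 ± 0.75, edgeR adjusted p = 0.0158) was lower. Outside these lists, IRX1 (log2FC 6.81 ± 0.53, edgeR adjusted p = 4.07e-09) and KLF15 (log2FC 4.61 ± 0.52, edgeR adjusted p = 1.52e-06), a factor of lipid and amino acid metabolism, were higher in HGA without overlap.

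**Figure D4:**
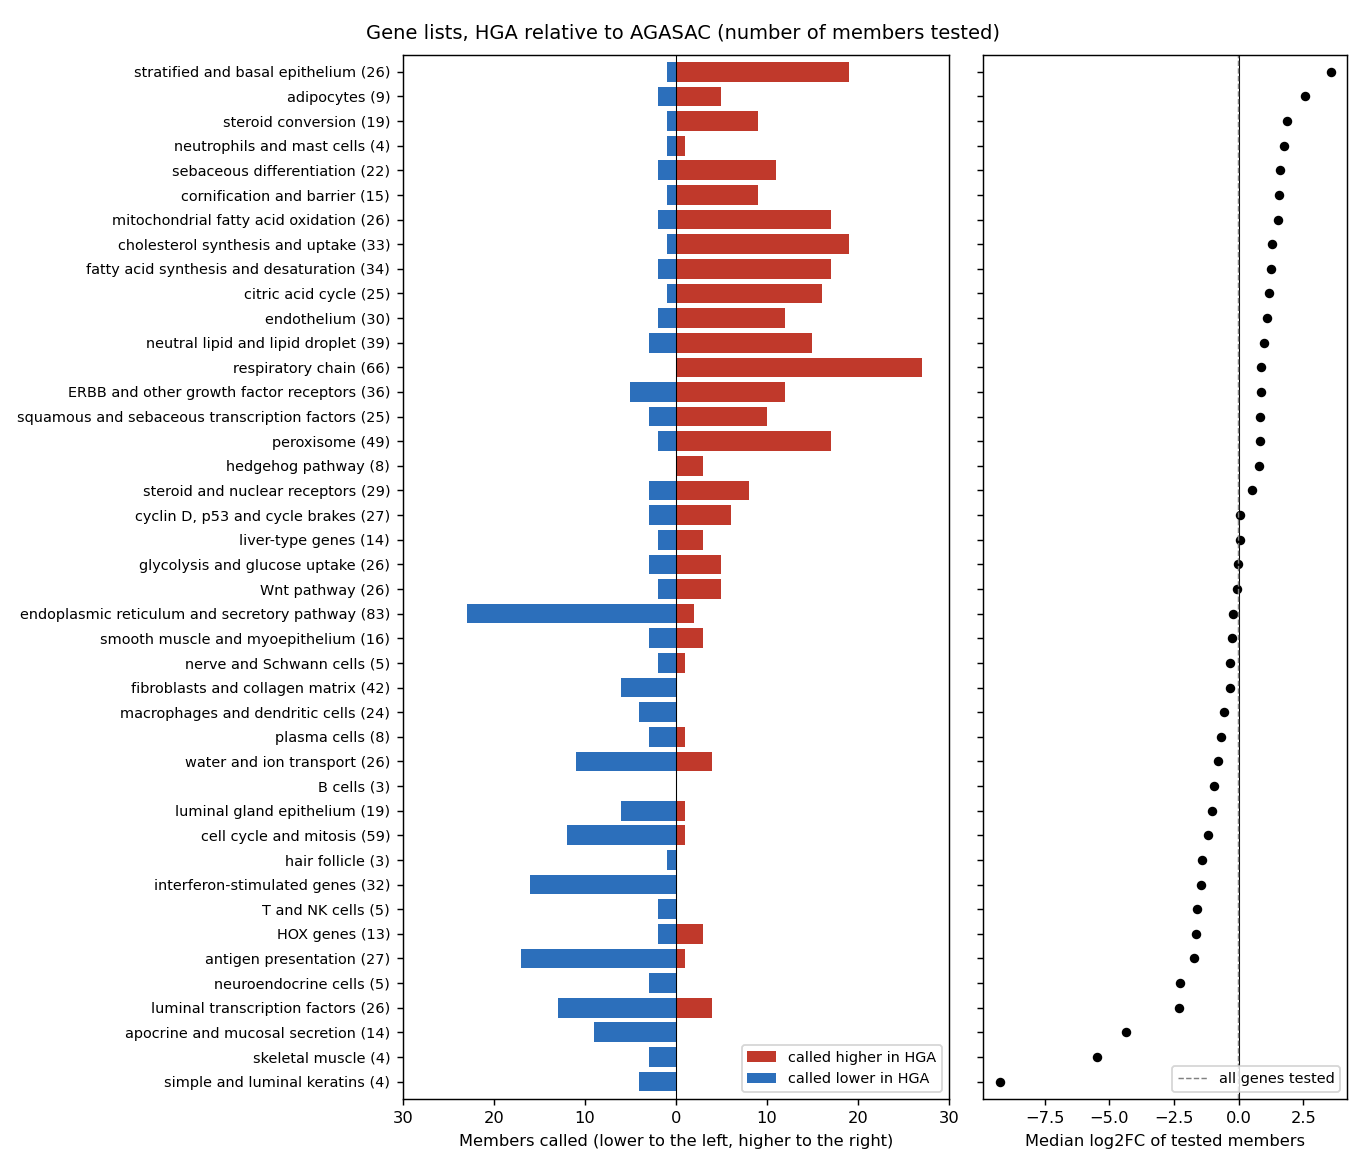
Members called higher (right) and lower (left) in HGA for each gene list, with the number tested in brackets, and beside them the median log2FC of the tested members. The stratified and basal list has 19 of 26 members higher and a median of 3.57, the apocrine secretion list has 9 of 14 lower and a median of −4.35, and the dashed line marks the median of all genes tested (−0.03).

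Genes of sebocytes were among the largest differences. In the sebaceous differentiation list 11 of 22 tested members were called higher and 2 lower (0 to 4 with 1 tumor left out) in HGA, with a median log2FC of 1.59 (3.08 without AGASAC 11, 3.53 within naming series A); the lower count was 4 without HGA 4, 0 without AGASAC 2 and 1 without any one of AGASAC 4, 6, 7, 9, 10 or 11. KRT79, a keratin of the sebaceous duct, was at 39.2 to 2518 CPM (median 1645) in HGA and at 0 CPM in every AGASAC, thus at least 1544-fold higher in HGA. CIDEA, which enlarges lipid droplets in sebocytes, was at 387 to 2410.4 CPM (median 1610.2) in HGA and at 0 to 0.343 CPM (median 0) in AGASAC, thus at least 1587-fold higher in HGA. AWAT2, an acyltransferase that forms wax esters, was at 9.45 to 42.3 CPM (median 16.8) in HGA and 0 to 0.313 CPM (median 0) in AGASAC, thus at least 19.2-fold higher in HGA. In the opposite direction, the transporter ABCC3 was at 0 to 4.402 CPM (median 0.505) in HGA and 1.44 to 34.6 CPM (median 8.18) in AGASAC (log2FC −3.69 ± 0.68, edgeR adjusted p = 9.08e-04, −4.33 without HGA 9). ABCC3 had counts enough to be tested in 12 of the 21 fits with 1 tumor left out, and not within naming series A. MC5R, the melanocortin receptor of sebaceous glands, was at 1.75 to 752 CPM (median 38.04) in HGA and 2.19 to 198 CPM (median 14.4) in AGASAC and was not called (log2FC 1.22 ± 0.84, edgeR adjusted p = 1); its highest value was that of HGA 4. The summed level was 4684 to 136693 CPM in HGA and 2139 to 6071 CPM in AGASAC, and without HGA 10 (4684 CPM) the lowest HGA was at 46734 CPM. SCD had the highest mean level of this list in HGA, so the sum largely follows that gene.

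Several genes of lipid synthesis were higher in HGA. For fatty acid synthesis and desaturation, 17 of 34 tested members were called higher and 2 lower in HGA, with a median log2FC of 1.25. Beside SCD and ELOVL5, the acyl-CoA synthetase ACSL1 was at 80.1 to 7036 CPM (median 2709) in HGA and 6.31 to 43.2 CPM (median 18.3) in AGASAC (log2FC 7.14 ± 0.55, edgeR adjusted p = 4.05e-09) and the dehydratase HACD2 of fatty acid elongation at 207 to 1799.6 CPM (median 796) in HGA and 40.2 to 63.1 CPM (median 54.2) in AGASAC (log2FC 4.23 ± 0.31, edgeR adjusted p = 1.69e-09), both without overlap. FASN, the fatty acid synthase itself, was at 321 to 3215 CPM (median 1448) in HGA and 234 to 865 CPM (median 424) in AGASAC (log2FC 1.68 ± 0.34, edgeR adjusted p = 0.00275), a smaller and overlapping difference. ACACA, which makes its substrate malonyl-CoA, was not called (log2FC 0.61 ± 0.22, edgeR adjusted p = 0.287). ACSL3, another synthetase that supplies lipid droplets, was lower in HGA (log2FC −2.38 ± 0.32, edgeR adjusted p = 1.80e-05), as was ELOVL1 (log2FC −1.22 ± 0.25, edgeR adjusted p = 0.00261).

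For neutral lipid and lipid droplet genes, 15 of 39 tested members were called higher and 3 lower (1 to 6 with 1 tumor left out) in HGA, with a median log2FC of 1.00; the lower count was 5 without HGA 4, 6 without HGA 8 and 1 without AGASAC 2. CIDEC, a droplet fusion protein, was at 93.2 to 1283 CPM (median 297) in HGA and 0 to 2.23 CPM (median 0) in AGASAC (log2FC 9.41 ± 0.68, edgeR adjusted p = 1.44e-09), and DGAT2, which completes triglyceride synthesis, at 3.96 to 295 CPM (median 55.02) in HGA and 0 to 3.798 CPM (median 1.402) in AGASAC (log2FC 5.69 ± 0.62, edgeR adjusted p = 9.10e-07). The droplet coat gene PLIN2 was at 111 to 659 CPM (median 211) in HGA and 73.6 to 1766 CPM (median 378) in AGASAC and was not called (log2FC −0.93 ± 0.44, edgeR adjusted p = 0.876). LPIN2, a phosphatidate phosphatase, was lower in HGA (log2FC −2.33 ± 0.33, edgeR adjusted p = 2.87e-05).

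Genes of cholesterol synthesis and uptake were called mostly as higher in HGA: 19 of 33 tested members were called higher and 1 lower (1 to 2 with 1 tumor left out) in HGA, with a median log2FC of 1.31. SCARB1, the receptor for high-density lipoprotein, was at 1139 to 4869 CPM (median 2865) in HGA and 35.6 to 102 CPM (median 48.6) in AGASAC (log2FC 5.54 ± 0.31, edgeR adjusted p = 1.50e-11). The tumor types did not overlap for it. Within the synthetic pathway, FDFT1 (squalene synthase) was higher without overlap (log2FC 3.15 ± 0.26, edgeR adjusted p = 1.40e-08). SQLE, which oxidizes squalene in the next step, was not called (log2FC −0.05 ± 0.37, edgeR adjusted p = 1). The carrier STARD4 was lower in HGA (log2FC −1.81 ± 0.41, edgeR adjusted p = 0.00858). The summed level was 6227 to 10563 CPM in HGA and 1081 to 1924 CPM in AGASAC, so that the lowest HGA was above the highest AGASAC.

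Peroxisomal and mitochondrial genes were called mostly as higher in HGA. In the peroxisome list 17 of 49 tested members were called higher and 2 lower (1 to 3 with 1 tumor left out) in HGA, with a median log2FC of 0.81. HAO2, a hydroxyacid oxidase, was at 33.6 to 496 CPM (median 176) in HGA and at 0 CPM in every AGASAC, thus at least 210.2-fold higher in HGA. The dehydrogenase DHRS4 was at 3.87 to 5155 CPM (median 2611) in HGA and 8.58 to 38.6 CPM (median 20.7) in AGASAC (log2FC 6.93 ± 0.67, edgeR adjusted p = 1.12e-07), where HGA 10 at 3.87 CPM was below every AGASAC. Catalase (CAT) was at 123 to 283 CPM (median 167) in HGA and 28.1 to 72.1 CPM (median 48.2) in AGASAC (log2FC 1.91 ± 0.19, edgeR adjusted p = 1.84e-07). ACOX2, an oxidase that acts on branched chains and bile acid precursors, was higher (log2FC 5.201 ± 0.82, edgeR adjusted p = 1.50e-04). CROT, which hands medium-chain products on to carnitine, was lower in HGA (log2FC −2.74 ± 0.43, edgeR adjusted p = 1.18e-04).

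In mitochondrial fatty acid oxidation, 17 of 26 tested members were called higher and 2 lower (2 to 4 with 1 tumor left out) in HGA, with a median log2FC of 1.52, and the lower count was 4 without HGA 10. The isomerase ECI1 (log2FC 3.44 ± 0.49, edgeR adjusted p = 3.35e-05) and the thiolase ACAT1 (log2FC 3.43 ± 0.30, edgeR adjusted p = 2.08e-08) were higher in all HGA but HGA 10. Both lower members were carnitine palmitoyltransferases, which admit long chains into mitochondria: CPT1A at 18.05 to 119.5 CPM (median 33.8) in HGA and 58.9 to 694 CPM (median 229.6) in AGASAC (log2FC −2.67 ± 0.42, edgeR adjusted p = 1.65e-04) and CPT1B (log2FC −2.66 ± 0.39, edgeR adjusted p = 5.24e-05). ACADM, the medium-chain dehydrogenase, was not called (log2FC −0.99 ± 0.41, edgeR adjusted p = 0.517) but was called lower without HGA 10, which had 650.4 CPM.

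In the respiratory chain, 27 of 66 tested members were called higher and 0 lower in HGA, with a median log2FC of 0.86. With scaling by library size alone, 12 were called higher and the median log2FC was 0.58. The sum was 12941 to 25229 CPM in HGA and 8176 to 12562 CPM in AGASAC. The largest differences were those of UQCRFS1, the Rieske protein of complex III (log2FC 1.67 ± 0.22, edgeR adjusted p = 1.13e-05), cytochrome c, CYCS (log2FC 1.61 ± 0.22, edgeR adjusted p = 1.69e-05), and the complex I subunit NDUFS1 (log2FC 1.56 ± 0.19, edgeR adjusted p = 3.20e-06). In the citric acid cycle list 16 of 25 tested members were called higher and 1 lower in HGA, with a median log2FC of 1.18. With scaling by library size alone, 9 were called higher and 1 lower. Citrate synthase (CS) was at 198 to 1074 CPM (median 356) in HGA and 65.2 to 135 CPM (median 96.9) in AGASAC (log2FC 2.09 ± 0.25, edgeR adjusted p = 2.47e-06), MDH1 at 251 to 1172 CPM (median 621) in HGA and 105 to 184 CPM (median 125) in AGASAC (log2FC 2.29 ± 0.23, edgeR adjusted p = 3.06e-07) and PCK2, which draws carbon from the cycle, at 25.4 to 282 CPM (median 108) in HGA and 1.15 to 15.7 CPM (median 7.599) in AGASAC (log2FC 3.77 ± 0.40, edgeR adjusted p = 5.00e-07). All of these were without overlap, and IDH2 was lower in HGA (log2FC −1.20 ± 0.27, edgeR adjusted p = 0.0071). In the glycolysis list 5 of 26 tested members were called higher and 3 lower (1 to 3 with 1 tumor left out) in HGA, with a median log2FC of −0.02, and the lower count was 1 without AGASAC 4. LDHA (log2FC 1.79 ± 0.22, edgeR adjusted p = 5.13e-06) and PFKFB2 (log2FC 1.58 ± 0.26, edgeR adjusted p = 1.95e-04) were higher without overlap, PKM was not called (log2FC −0.73 ± 0.22, edgeR adjusted p = 0.0877), and SLC2A4, the insulin-responsive glucose transporter, was lower (log2FC −3.93 ± 0.68, edgeR adjusted p = 4.98e-04, −5.07 without HGA 6).

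Steroid-converting enzymes and receptors were examined because the glands respond to hormones. In the steroid conversion list 9 of 19 tested members were called higher and 1 lower in HGA, with a median log2FC of 1.86. HSD3B2, which turns precursors into active steroid classes, was at 18.1 to 279 CPM (median 84.9) in HGA and at 0 CPM in every AGASAC, thus at least 104-fold higher in HGA. SRD5A1, which converts testosterone to dihydrotestosterone, was at 27.98 to 1539.97 CPM (median 478) in HGA and 9.58 to 42.2 CPM (median 24.2) in AGASAC (log2FC 4.68 ± 0.51, edgeR adjusted p = 9.17e-07). The retinol and steroid dehydrogenase RDH16 was at 8.18 to 294 CPM (median 139) in HGA and 0 to 3.17 CPM (median 0) in AGASAC (log2FC 7.40 ± 0.73, edgeR adjusted p = 1.67e-07). HSD11B2, which inactivates cortisol, was lower in HGA (log2FC −2.18 ± 0.50, edgeR adjusted p = 0.0086). Among 29 receptors tested, 8 were higher and 3 lower in HGA. The estrogen receptor ESR1 was at 87.2 to 247 CPM (median 178) in HGA and 0.288 to 27.97 CPM (median 3.78) in AGASAC (log2FC 3.98 ± 0.52, edgeR adjusted p = 1.18e-05), without overlap. PPARA was higher (log2FC 2.30 ± 0.39, edgeR adjusted p = 3.19e-04), and PPARG, the lipid-sensing receptor of sebocytes and adipocytes, was not called (log2FC 0.82 ± 0.28, edgeR adjusted p = 0.189). With neutered or intact as a covariate, ESR1 kept its call, but of the other genes named as called, FASN (log2FC 1.42), HOXA7 (−2.92), KIF15 (−1.66), OVOL2 (−1.07) and SEC61A1 (−0.99) lost theirs. The 4 intact males were all HGA, so in males that state and tumor type could be compared only through the 1 neutered male with HGA, HGA 10.

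Several proteins that apocrine glands secrete were near 0 in HGA. In the apocrine and mucosal secretion list 0 of 14 tested members were called higher (0 to 1 with 1 tumor left out) and 9 lower in HGA, with a median log2FC of −4.35 (−5.08 to −3.35 with 1 tumor left out, −1.47 within naming series A). Within naming series A 5 were lower, and within RNA extraction batch 5 the median was −2.12. PIP was at 0 to 1.26 CPM (median 0) in HGA and 866 to 5946 CPM (median 2869) in AGASAC (log2FC −13.46 ± 0.67, edgeR adjusted p = 1.84e-12, −14.28 without HGA 7), though reads shared with the near-identical LOC102153414 make the division between these genes uncertain. PIGR, which carries antibodies across epithelium, was at 0 to 0.568 CPM (median 0) in HGA and at 10.8 to 1910.3 CPM (median 467) in AGASAC, thus at least 311-fold lower in HGA. The apocrine transporter ABCC11 was at 0 to 13.3 CPM (median 0.297) in HGA and 216 to 737 CPM (median 389.6) in AGASAC (log2FC −7.36 ± 0.75, edgeR adjusted p = 2.82e-07, −8.06 without HGA 4). Lactoferrin, LTF, was at 0 to 15.5 CPM (median 0.5795) in HGA and 0.982 to 738 CPM (median 48.4) in AGASAC (log2FC −6.03 ± 1.12, edgeR adjusted p = 0.00102, −7.16 without HGA 8), with overlap, as was ceruloplasmin, CP (log2FC −7.76 ± 0.94, edgeR adjusted p = 3.62e-06). CP had counts enough to be tested in 11 of the 21 fits with 1 tumor left out, and not within naming series A. The summed level was 514 to 3919.9 CPM in HGA and 3123 to 11484 CPM in AGASAC; the highest HGA was HGA 10, and 3768 of its 3920 CPM were LALBA, the milk protein α-lactalbumin, which was at most 19.6 CPM in the other 9 HGA and was named after its values were seen.

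Genes of the secretory route were mostly lower in HGA where they were called. In the endoplasmic reticulum and secretory pathway list 2 of 83 tested members were called higher (1 to 2 with 1 tumor left out) and 23 lower in HGA, with a median log2FC of −0.23, and 15 of the lower members did not overlap. XBP1, the factor that expands the endoplasmic reticulum, was at 19.4 to 49.8 CPM (median 29.7) in HGA and 184 to 738 CPM (median 421) in AGASAC (log2FC −3.83 ± 0.26, edgeR adjusted p = 4.78e-10). CREB3L2 (log2FC −4.01 ± 0.30, edgeR adjusted p = 1.89e-09) and CREB3L4 (log2FC −4.06 ± 0.49, edgeR adjusted p = 3.84e-06), related factors of secretory cells, were lower without overlap. The chaperone HSPA5 was at 107 to 270.3 CPM (median 178) in HGA and 358 to 628 CPM (median 484) in AGASAC (log2FC −1.47 ± 0.18, edgeR adjusted p = 3.55e-06), the disulfide isomerase PDIA5 was lower without overlap (log2FC −3.48 ± 0.38, edgeR adjusted p = 1.02e-06), and the translocon subunit SEC61A1 was at 77.3 to 135 CPM (median 94.1) in HGA and 148 to 326 CPM (median 179.6) in AGASAC (log2FC −1.09 ± 0.17, edgeR adjusted p = 1.11e-04). The stress-induced TRIB3 was higher in HGA (log2FC 2.43 ± 0.55, edgeR adjusted p = 0.00817). The sum was 10533 to 12357 CPM in HGA and 12678 to 17985 CPM in AGASAC.

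Channels and transporters for water and ions differed in both directions. In that list 4 of 26 tested members were called higher and 11 lower in HGA, with a median log2FC of −0.79 (−0.52 without AGASAC 7, −0.09 within naming series A). The calcium channel TRPV6 was at 0 CPM in every HGA and at 26.6 to 186 CPM (median 93.4) in AGASAC, thus at least 48.2-fold lower in HGA. AQP5, the water channel of exocrine glands, was at 0 to 2.08 CPM (median 0) in HGA and 23.6 to 448 CPM (median 175) in AGASAC (log2FC −8.80 ± 0.83, edgeR adjusted p = 7.67e-08, −9.87 without HGA 7), and SLC12A2, the chloride importer of secreting cells, at 0.4402 to 10.7 CPM (median 6.45) in HGA and 69.8 to 649 CPM (median 132) in AGASAC (log2FC −5.46 ± 0.54, edgeR adjusted p = 1.79e-07). In the other direction, the potassium channel KCNJ15 was at 48.2 to 343 CPM (median 119) in HGA and at 0 to 0.637 CPM (median 0) in AGASAC, thus at least 148-fold higher in HGA. CLCA2, a chloride channel regulator of basal epithelium, was at 8.79 to 54.1 CPM (median 19.5) in HGA and 0 CPM in every AGASAC, thus at least 23.7-fold higher in HGA. AQP1, an aquaporin of vessels, was higher too (log2FC 1.88 ± 0.36, edgeR adjusted p = 0.00129).

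The hepatocyte-like look for which the gland is named was compared with a list of 70 liver-type genes. Of the 51 present in the table, 14 had counts enough to be tested, 3 were higher and 2 lower (1 to 2 with 1 tumor left out) in HGA, and the median log2FC was 0.05. ALB, the defining secreted protein of hepatocytes, reached at most 3.21 CPM in an HGA and 2.23 CPM in an AGASAC and was not tested. C4BPA, a complement regulator, was at 5.603 to 27.2 CPM (median 13.6) in HGA and at 0 to 0.291 CPM (median 0) in AGASAC, thus at least 14.3-fold higher in HGA. CEBPA, a factor shared by hepatocytes, adipocytes and sebocytes, was at 59.1 to 267 CPM (median 109.9) in HGA and 1.64 to 17.5 CPM (median 6.22) in AGASAC (log2FC 4.14 ± 0.32, edgeR adjusted p = 4.57e-09). APOC1 was higher (log2FC 4.79 ± 1.03, edgeR adjusted p = 0.00492) with a wide spread, at 5.596 to 4237 CPM (median 89.8) in HGA and 4.14 to 102 CPM (median 28.04) in AGASAC. HPX, the heme carrier made in liver, was by contrast at 0 to 3.16 CPM (median 0) in HGA and 447 to 2269 CPM (median 819.95) in AGASAC (log2FC −10.64 ± 0.70, edgeR adjusted p = 2.57e-10, −11.25 without HGA 7). APOA1 was not called (log2FC 0.41 ± 0.38, edgeR adjusted p = 1).

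**Figure D5:**
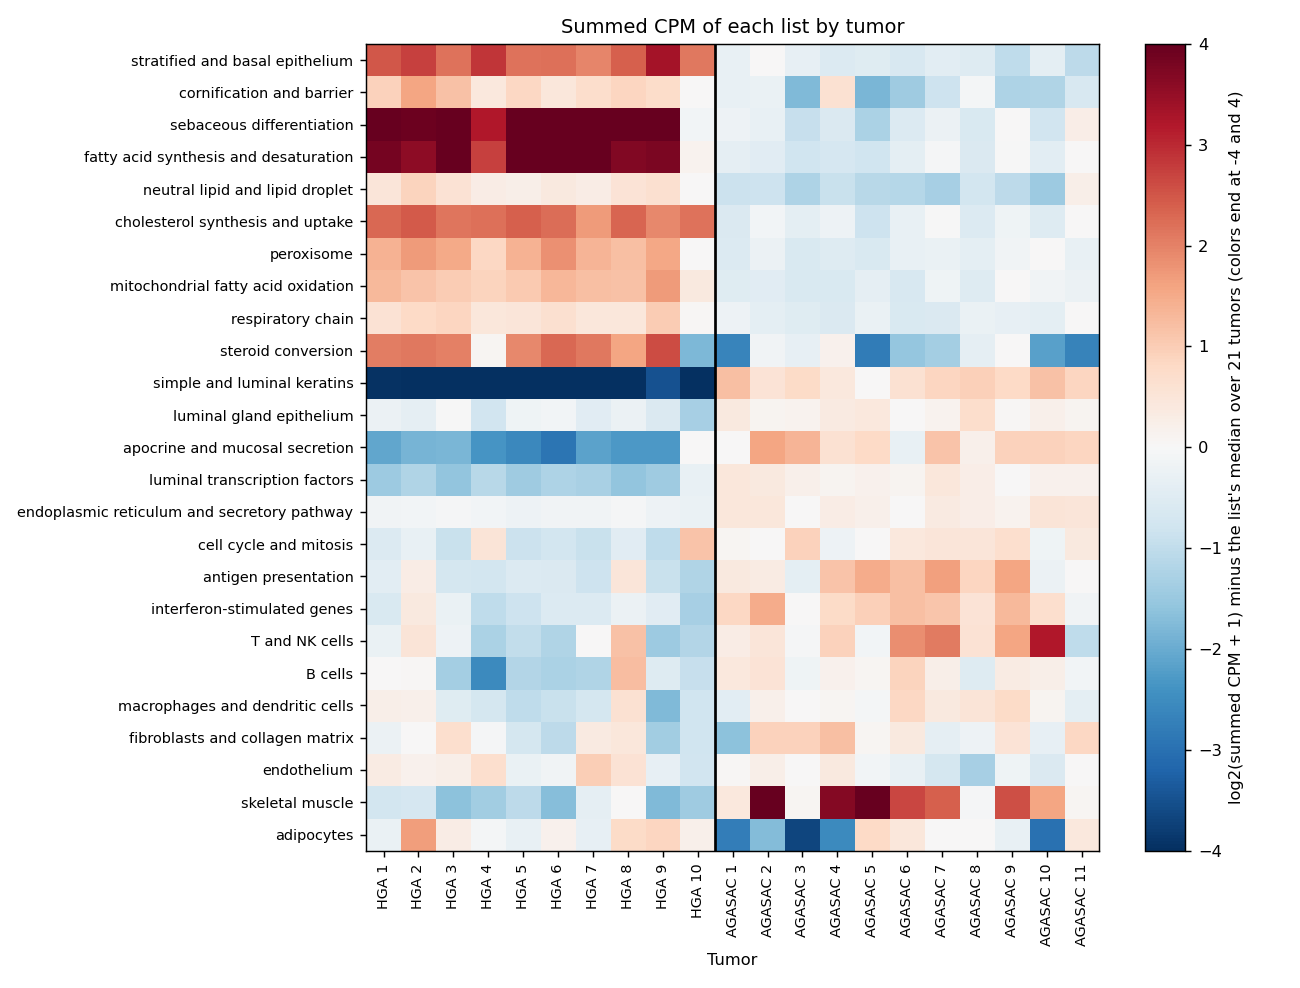
Summed CPM of the members of each list in each tumor, relative to the median of all 21 tumors on a log2 color scale, with HGA 1 to 10 on the left and AGASAC 1 to 11 on the right. HGA 10 departs from the other HGA in the sebaceous list (4684 against 46734 CPM or more) and in the cell cycle list (3026 against 673 to 1960 CPM).

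The summed level of proliferation genes was lower in most HGA, and the number of them called depended on HGA 10. In the cell cycle and mitosis list 1 of 59 tested members was called higher (0 to 1 with 1 tumor left out) and 12 lower (8 to 31 with 1 tumor left out) in HGA, with a median log2FC of −1.17; without HGA 10 the numbers were 31 lower of 60 tested, and with neutered or intact as a covariate 5 were lower. The sum was 673 to 3026 CPM in HGA and 1192 to 2606 CPM in AGASAC, with 3026 CPM in HGA 10, 1960 CPM in HGA 4 and 673 to 1107 CPM in the other 8 HGA. KIF15, a mitotic kinesin, was at 0.197 to 36.2 CPM (median 7.83) in HGA and 9.59 to 77.9 CPM (median 43.9) in AGASAC (log2FC −2.20 ± 0.53, edgeR adjusted p = 0.014), SPC25 of the kinetochore at 0.459 to 5.44 CPM (median 1.25) in HGA and 0.956 to 20.98 CPM (median 8.77) in AGASAC (log2FC −2.18 ± 0.45, edgeR adjusted p = 0.00343), and E2F1, a driver of entry into S phase, at 0.418 to 12.9 CPM (median 2.12) in HGA and 5.48 to 20.6 CPM (median 11.2) in AGASAC (log2FC −2.07 ± 0.45, edgeR adjusted p = 0.00607, −2.71 without HGA 10). TOP2A, the topoisomerase of dividing cells, was at 8.67 to 166 CPM (median 14.03) in HGA and 27.9 to 179.6 CPM (median 76.6) in AGASAC and was not called (log2FC −1.12 ± 0.52, edgeR adjusted p = 0.802); its highest HGA value was that of HGA 10, without which it was called lower. The D-type cyclins, which open the cell cycle, split by paralog. CCND1 was at 24.7 to 94.9 CPM (median 44.6) in HGA and 121 to 1155 CPM (median 488) in AGASAC (log2FC −3.38 ± 0.37, edgeR adjusted p = 9.41e-07), without overlap. CCND2 was at 10.8 to 541 CPM (median 157) in HGA and 6.08 to 34.3 CPM (median 11.9) in AGASAC (log2FC 3.66 ± 0.42, edgeR adjusted p = 1.66e-06), and CCND3 at 37.9 to 777 CPM (median 55.8) in HGA and 5.89 to 40.4 CPM (median 12.6) in AGASAC (log2FC 3.104 ± 0.55, edgeR adjusted p = 5.76e-04, 1.87 without HGA 4). HGA 4 had both the lowest CCND2 and the highest CCND3 of the HGA.

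For the cyclin D, p53 and cycle brake list, 6 of 27 tested members were called higher and 3 lower in HGA, with a median log2FC of 0.05. The cyclin kinase inhibitor CDKN2B (log2FC 3.14 ± 0.41, edgeR adjusted p = 1.22e-05) and the stress-response gene SESN1 (log2FC 2.72 ± 0.31, edgeR adjusted p = 1.59e-06) were higher. BTG1 (log2FC −2.07 ± 0.48, edgeR adjusted p = 0.0109) and BTG2 (log2FC −2.45 ± 0.47, edgeR adjusted p = 0.00149), which hold cells in quiescence, were lower in HGA, and CDKN1A, the p53 target p21, was not called (log2FC 0.05 ± 0.31, edgeR adjusted p = 1).

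Growth factor receptors and ligands differed in both directions: 12 of 36 tested members were called higher and 5 lower in HGA, with a median log2FC of 0.86. NTRK2, a neurotrophin receptor, was at 26.6 to 529 CPM (median 240.3) in HGA and 1.16 to 9.88 CPM (median 6.56) in AGASAC (log2FC 5.66 ± 0.47, edgeR adjusted p = 1.09e-08). MET, the receptor of hepatocyte growth factor, was at 107 to 233 CPM (median 174) in HGA and 0 to 34.6 CPM (median 2.87) in AGASAC (log2FC 4.82 ± 0.63, edgeR adjusted p = 1.16e-05, 5.76 without AGASAC 11), and EGFR at 443 to 1321 CPM (median 585) in HGA and 7.21 to 398 CPM (median 80.4) in AGASAC (log2FC 2.71 ± 0.50, edgeR adjusted p = 9.69e-04). VEGFC, a ligand for growth of lymphatic vessels, was at 69.9 to 141 CPM (median 102) in HGA and 0.865 to 7.25 CPM (median 3.19) in AGASAC (log2FC 4.88 ± 0.29, edgeR adjusted p = 6.80e-11). None of these 4 genes overlapped. FGFR1 was at 20.9 to 88.8 CPM (median 44.4) in HGA and 175 to 576 CPM (median 293) in AGASAC (log2FC −2.64 ± 0.25, edgeR adjusted p = 1.14e-07), lower in HGA without overlap, and ERBB3 was lower with overlap (log2FC −1.62 ± 0.38, edgeR adjusted p = 0.013). ERBB2, the receptor HER2, was at 18.5 to 154 CPM (median 87.7) in HGA and 63.9 to 188 CPM (median 128) in AGASAC and was not called (log2FC −0.48 ± 0.27, edgeR adjusted p = 1).

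In the hedgehog pathway 3 of 8 tested members were called higher and 0 lower in HGA, with a median log2FC of 0.80 (0.33 to 1.27 without HGA 2, HGA 4, HGA 5, HGA 9 or HGA 10): the co-receptors BOC (log2FC 2.82 ± 0.63, edgeR adjusted p = 0.00757, 3.58 without AGASAC 4) and CDON (log2FC 1.38 ± 0.33, edgeR adjusted p = 0.0124) and the effector GLI3 (log2FC 1.40 ± 0.34, edgeR adjusted p = 0.0162). With scaling by library size alone, 1 member of this list was called higher. PTCH1, receptor and target of the pathway, was not called (log2FC 0.03 ± 0.54, edgeR adjusted p = 1). In the Wnt pathway 5 of 26 tested members were called higher (3 to 6 with 1 tumor left out) and 2 lower in HGA, with a median log2FC of −0.05, and the higher count was 3 without AGASAC 1, 2, 5 or 9. The receptors FZD8 (log2FC 2.96 ± 0.39, edgeR adjusted p = 1.44e-05) and FZD4 (log2FC 2.12 ± 0.32, edgeR adjusted p = 8.58e-05) and the ligand WNT3 (log2FC 3.33 ± 0.67, edgeR adjusted p = 0.00253) were higher, and the secreted antagonists SFRP2 (log2FC −4.35 ± 0.74, edgeR adjusted p = 3.68e-04) and DKK3 (log2FC −3.33 ± 0.51, edgeR adjusted p = 1.01e-04) were lower. AXIN2, a direct target of the pathway, was not called (log2FC −1.03 ± 0.47, edgeR adjusted p = 0.728).

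Many genes of antigen presentation and of the interferon response were lower in HGA. For antigen presentation, 1 of 27 tested members was called higher and 17 lower in HGA, with a median log2FC of −1.74 (−0.85 within naming series A). Within naming series A, 1 member was higher and 4 were lower. CD74, the invariant chain of class II, was at 24.1 to 240.1 CPM (median 51.1) in HGA and 93.96 to 933 CPM (median 421) in AGASAC (log2FC −2.73 ± 0.46, edgeR adjusted p = 3.85e-04), and HGA 8 at 240.1 CPM was the HGA that reached into the AGASAC range. Within naming series A the log2FC of CD74 was −0.92 and was not called (edgeR adjusted p = 1). The immunoproteasome subunits PSMB9 (log2FC −2.995 ± 0.39, edgeR adjusted p = 9.70e-06) and PSMB8 (log2FC −2.79 ± 0.39, edgeR adjusted p = 3.07e-05) did not overlap. TAP1, the peptide transporter, was at 5.11 to 42.7 CPM (median 9.76) in HGA and 39.97 to 248 CPM (median 102) in AGASAC (log2FC −2.80 ± 0.41, edgeR adjusted p = 4.94e-05). B2M, the light chain of class I, was not called (log2FC −0.72 ± 0.36, edgeR adjusted p = 1), and IFI30, a lysosomal reductase, was higher in HGA (log2FC 1.30 ± 0.28, edgeR adjusted p = 0.00435). Among interferon-stimulated genes, 0 of 32 tested members were called higher (0 to 2 with 1 tumor left out) and 16 lower in HGA, with a median log2FC of −1.46, where the higher count was 2 without HGA 4 and 1 without HGA 10. IFIT3 was at 0 to 6.11 CPM (median 0.594) in HGA and 16.6 to 118 CPM (median 36.2) in AGASAC (log2FC −4.27 ± 0.59, edgeR adjusted p = 2.61e-05), IFIT2 at 0 to 2.28 CPM (median 0.8201) in HGA and 4.84 to 24.1 CPM (median 14.99) in AGASAC (log2FC −3.70 ± 0.48, edgeR adjusted p = 1.03e-05) and MX1 at 1.61 to 13.8 CPM (median 9.04) in HGA and 11.5 to 174 CPM (median 56.9) in AGASAC (log2FC −3.17 ± 0.46, edgeR adjusted p = 4.61e-05).

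For markers of immune cells, few members were tested or called. Of the T and NK cell list, 5 of the 35 members in the table had counts enough to be tested, and 2 were lower (1 to 2 with 1 tumor left out). CD3D and CD3E, which define T cells, were not tested. CCL5 was lower (log2FC −3.07 ± 0.56, edgeR adjusted p = 8.71e-04) and CD2 was not called (log2FC −1.53 ± 0.58, edgeR adjusted p = 0.343). The summed level of that list was 25.97 to 165 CPM in HGA and 35.1 to 679.7 CPM in AGASAC, and that of the macrophage and dendritic cell list 194 to 1006 CPM in HGA and 489 to 1188 CPM in AGASAC. In the latter, 0 of 24 tested members were called higher and 4 lower (4 to 7 with 1 tumor left out) in HGA, with a median log2FC of −0.58 (−0.11 within naming series A), with 7 lower without HGA 8, against 12.5% of all genes lower. ITGAM (log2FC −4.77 ± 0.91, edgeR adjusted p = 0.00138), CD14 (log2FC −1.33 ± 0.33, edgeR adjusted p = 0.0183) and C1QB (log2FC −1.26 ± 0.29, edgeR adjusted p = 0.00865) were lower, and CD68 (log2FC 0.02), CD163 (log2FC −0.37) and CSF1R (log2FC −0.31) were not called (edgeR adjusted p = 1 for each). In the B cell list 0 of 3 tested members were called higher and 0 lower in HGA, with a median log2FC of −0.97. In the plasma cell list 1 of 8 tested members was called higher and 3 lower in HGA, with a median log2FC of −0.69; the higher member was SDC1, the syndecan that epithelial cells also carry, at 204 to 812 CPM (median 441) in HGA and 4.07 to 33.2 CPM (median 9.77) in AGASAC (log2FC 5.23 ± 0.35, edgeR adjusted p = 4.78e-10). The lower members included XBP1 (log2FC −3.83), which also counts in the secretory pathway list. JCHAIN, which plasma cells secrete with antibodies, was not called (log2FC −0.99 ± 0.42, edgeR adjusted p = 0.588). In the neutrophil and mast cell list 1 of 4 tested members was called higher and 1 lower in HGA, with a median log2FC of 1.77. The lower member was LTF, which also counts in the apocrine secretion list. The part of immune cells in the antigen presentation and interferon results was not tested.

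Of the fibroblast and collagen matrix genes, 0 of 42 tested members were called higher (0 to 2 with 1 tumor left out) and 6 lower in HGA, with a median log2FC of −0.34, with 2 higher without HGA 10. COL1A1 was at 505 to 2471 CPM (median 1171) in HGA and 281 to 4491 CPM (median 2047) in AGASAC and was not called (log2FC −0.95 ± 0.39, edgeR adjusted p = 0.483), nor was DCN (log2FC 0.13 ± 0.32, edgeR adjusted p = 1). FN1, fibronectin, was at 3.52 to 202 CPM (median 61.3) in HGA and 54.04 to 1119.7 CPM (median 451) in AGASAC (log2FC −2.73 ± 0.53, edgeR adjusted p = 0.0016), and COL11A1 (log2FC −4.06 ± 0.68, edgeR adjusted p = 3.19e-04) and THBS2 (log2FC −2.26 ± 0.44, edgeR adjusted p = 0.00186) were lower in HGA too. Endothelial genes were called mostly as higher: 12 of 30 tested members were called higher and 2 lower in HGA, with a median log2FC of 1.11. With 1 tumor left out, 9 to 14 were higher and 1 to 2 lower. Within naming series A 5 were higher and 1 lower, with neutered or intact as a covariate 8 and 1, and with library size alone 7 and 2. The summed level overlapped, at 520 to 1738 CPM in HGA and 352 to 1166 CPM in AGASAC. CCL21, the chemokine of lymphatic vessels, was at 5.596 to 128 CPM (median 41.6) in HGA and 0 to 7.33 CPM (median 2.404) in AGASAC (log2FC 4.28 ± 0.59, edgeR adjusted p = 2.64e-05), and ENG at 16.4 to 121 CPM (median 50.3) in HGA and 4.58 to 31.3 CPM (median 14.7) in AGASAC (log2FC 1.95 ± 0.32, edgeR adjusted p = 2.69e-04). PECAM1, a defining marker of endothelium, was not called (log2FC 0.84 ± 0.40, edgeR adjusted p = 0.857). CLEC14A, another endothelial surface gene, was lower (log2FC −4.10 ± 0.54, edgeR adjusted p = 1.17e-05).

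In the smooth muscle and myoepithelium list 3 of 16 tested members were called higher and 3 lower in HGA, with a median log2FC of −0.26. MYLK, the myosin light chain kinase, was at 97.3 to 306 CPM (median 169.6) in HGA and 10.7 to 39.2 CPM (median 20.7) in AGASAC (log2FC 3.095 ± 0.26, edgeR adjusted p = 1.73e-08), KCNMB1 was lower (log2FC −5.19 ± 0.48, edgeR adjusted p = 6.51e-08), and ACTA2 (log2FC −0.21) and CNN1 (log2FC −0.25) were not called (edgeR adjusted p = 1 for both). Skeletal muscle transcripts were found mostly in AGASAC: 0 of 4 tested members were called higher and 3 lower (3 to 6 with 1 tumor left out) in HGA, with a median log2FC of −5.47 (−5.61 to −4.53 with 1 tumor left out, −3.19 within naming series A), where 5 or 6 were lower with any single HGA left out (6 of 8 tested without HGA 10), and the sum was 15.8 to 56.5 CPM in HGA and 54.3 to 1601 CPM in AGASAC. ACTA1, the actin of skeletal muscle, was at 0 to 5.86 CPM (median 0) in HGA and 3.51 to 505 CPM (median 63.2) in AGASAC (log2FC −6.38 ± 1.03, edgeR adjusted p = 2.05e-04, −6.97 without HGA 8) and TTN at 0 to 4.75 CPM (median 0.175) in HGA and 0.935 to 236 CPM (median 31.8) in AGASAC (log2FC −6.28 ± 0.96, edgeR adjusted p = 9.99e-05, −7.29 without HGA 7). The AGASAC differed widely among themselves in these transcripts, and the part of muscle in other results was not tested. In the adipocyte list 5 of 9 tested members were called higher (5 to 8 with 1 tumor left out) and 2 lower in HGA, with a median log2FC of 2.57 (3.16 without HGA 4 and 3.44 without AGASAC 5), with 8 higher without HGA 10. LPL (log2FC 4.40 ± 0.59, edgeR adjusted p = 1.47e-05) and FABP4 (log2FC 3.92 ± 0.49, edgeR adjusted p = 7.05e-06) were higher without overlap, whereas PDE3B (log2FC −5.09 ± 0.76, edgeR adjusted p = 7.06e-05) was lower. LEP and PLIN1, which define adipocytes, had too few counts to be tested. In the nerve and Schwann cell list 1 of 5 tested members was called higher and 2 lower in HGA, with a median log2FC of −0.31. The lower members included ERBB3, which also counts in the luminal gland epithelium list. Among the neuroendocrine genes 0 of 5 tested members were called higher and 3 lower in HGA, with a median log2FC of −2.28 (−3.25 without AGASAC 9, 1.86 within naming series A). Of the hair follicle genes 0 of 3 tested members were called higher (0 to 1 with 1 tumor left out) and 1 lower in HGA, with a median log2FC of −1.43 (−1.51 to −0.32 with 1 tumor left out, 2.73 within naming series A). The −0.32 was the median without HGA 10. The lower member was GATA3, which also counts in the luminal transcription factor list. The 1 melanocyte gene tested was not called, and no red blood cell gene was tested.

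Across the 29 lists with at least 5 tested members and a median log2FC of at least 0.5 in size, the sign of the median was the same in all 29 with neutered or intact as a covariate, with library size alone, without HGA 10 and within RNA extraction batches 5 and 6. It was the same in 28 within naming series A, the exception being the neuroendocrine genes, and in 28 within RNA extraction batch 8, the exception being the HOX genes (median log2FC 0.0091 against −1.63). Counted over all fits, including those not named here, the sign differed in 1 for the hedgehog list, 2 for the HOX genes and 1 for the neuroendocrine genes. Besides CD74, the genes named as called whose log2FC was smaller by more than 1.5 times within naming series A, where tested, were BTG2 (−1.08), C1QB (−0.73), EHF (−3.24), ERBB3 (−0.38) and PDE3B (−2.66).

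Large differences also lay outside every list. Higher in HGA were CBD103, a β-defensin gene of dogs, at 8.22 to 454 CPM (median 100.3) in HGA and at 0 CPM in every AGASAC, thus at least 129-fold higher in HGA, and the teneurin TENM2 at 100.5 to 470.5 CPM (median 171) in HGA and 0 to 0.548 CPM (median 0) in AGASAC, thus at least 199-fold higher in HGA. DUOX1, an oxidase that generates hydrogen peroxide, was at least 154-fold higher in HGA. IL1R2, the decoy receptor of interleukin-1, was at 205 to 2790.1 CPM (median 984) in HGA and 0 to 4.04 CPM (median 0.627) in AGASAC (log2FC 9.62 ± 0.59, edgeR adjusted p = 1.05e-10), and RDH12, a retinol dehydrogenase, at 102 to 4592 CPM (median 1608) in HGA and 0 to 7.55 CPM (median 0) in AGASAC (log2FC 10.45 ± 0.88, edgeR adjusted p = 1.54e-08, 11.36 without AGASAC 6). Lower in HGA was QRFPR, a neuropeptide receptor, at 0 CPM in every HGA and at 141 to 2547 CPM (median 1230.05) in AGASAC, thus at least 662-fold lower in HGA. GCGR, the glucagon receptor, was at 0 CPM in every HGA and at 61.2 to 396 CPM (median 288) in AGASAC, thus at least 156-fold lower in HGA. ATP2B2, a calcium pump of secretory epithelia and hair cells, was at least 114-fold lower in HGA, and CYP4A11, a fatty acid hydroxylase, at 0 to 0.4304 CPM (median 0) in HGA and 4.49 to 1769.98 CPM (median 101) in AGASAC, was at least 165-fold lower in HGA. All of these were called without overlap, which the rule for naming genes outside the lists required.

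HGA 10 lay above all AGASAC in the basal genes KRT14 and TP63 and apart from the other HGA in SCD and several other lipid genes. It had 2617 CPM of KRT14 and 533 CPM of TP63, the latter the highest of all HGA, and 0 CPM of KRT8. SCD was at 2208 CPM against at least 38062 CPM in the other 9 HGA, and KRT79 at 39.2 CPM against at least 1005 CPM. The fatty acid synthesis sum, which includes SCD as its most abundant member in HGA, was 8302 CPM, and at least 50098 CPM in the other 9. The cholesterol synthesis and uptake sum of HGA 10, 8594 CPM, lay within the range of the other 9 (6227 to 10563 CPM). GATA3 (2048 CPM) and TFAP2A (1126 CPM) were highest in this tumor. Ranked among the HGA, HGA 10 was lowest for 2460 genes and highest for 2408, HGA 4 in 2045 and 1785, HGA 9 in 1926 and 1794, and each of the other 7 in 324 to 1091 and 561 to 1313.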

How the data were processed

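RNA was extracted from archived, formalin-fixed and paraffin-embedded tumor tissue after tumor-adjacent tissue had been removed, and QuantSeq 3′ libraries were sequenced. The authors trimmed reads with cutadapt, aligned them to CanFam3.1 with STAR and counted them per gene with featureCounts, taking reads left unassigned to another round in which annotated 3′ ends were extended by 2 kb, and divided multi-mapped reads evenly among their mapping locations; tool versions are not given in the sources used here. The division of multi-mapped reads makes the levels of near-identical genes uncertain. The deposited table holds whole-number counts per gene and tumor, which were used. It also holds the authors' size-factor normalized signal per tumor and its mean, log2 fold changes and p-values of the authors' own comparison by DESeq2, which were not used. The number of per-sample columns that could not be assigned to a sample was 0. No genome of the build used was at hand, so no coordinates or sequences are given.

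Tumors were grouped by diagnosis and numbered as in the labels. Counts as deposited were analysed with edgeR 4.0.16 in R 4.3.3 (limma 3.58.1): filterByExpr with a minimum count of 10 and a total of 15, TMM factors, glmQLFit and glmQLFTest, and Benjamini-Yekutieli adjustment over all 12070 genes tested, with calls made from 0.05 downward in adjusted p and from 1 upward in absolute log2FC. Standard errors were derived from the F statistic. CPM ranges, medians and list sums were computed without a pseudocount, and principal components from log2 CPM with a pseudocount of 1. All pairs of libraries of a type differed by more than sampling noise, so no tumor was counted as a duplicate.

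The members, the 44 gene lists (1649 entries) and the 32 gene families were chosen with earlier results of these data known. The families served to choose genes to name and, for the keratins, to count those without overlap. In each list, genes could be named that were among the 4 largest called rises or falls or that define the list; outside the lists, the 15 largest rises and falls without overlap; in addition, the 10 most abundant genes of each type and the extremes of each family. Alternatives were DESeq2 1.42.0, other normalizations, filters, adjustments and covariates, analyses within naming series or extraction batches, a replicate block and leaving out each tumor. Some genes are not reported here.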

Additional observations from a re-analysis of the deposited data

Results flagged for a closer look

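Single HGA stood apart from the other 9 in 42 of 232 values examined (list sums and the genes named above), by a gap to the nearest tumor that was larger, relative to the whole range, than Dixon's 95% limit for 10 samples. Gap and range were taken on the log2 scale after adding 1 to the CPM, whereas the values below are plain CPM. Chance sets about 1 in 20 such groups apart, and genes of 1 tumor are not independent. The 11 AGASAC are too many for this limit and were not examined. HGA 10 accounted for 28 of the 42 values.

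Among list sums, HGA 10 was lowest for sebaceous differentiation (4684 CPM), fatty acid synthesis (8302 CPM) and nerve and Schwann cells (32.7 CPM), and highest for luminal transcription factors (5509 CPM), apocrine secretion (3920 CPM) and hair follicle genes (2156 CPM). These sums are not separate: GATA3 (2048 CPM in HGA 10) counts in both the luminal factor and hair follicle sums. SCD (2208 CPM) counts in both the sebaceous and fatty acid sums and was the most abundant member of each in HGA. The apocrine sum of HGA 10 was mostly LALBA. HGA 4 was highest for smooth muscle and myoepithelium (1293 CPM).

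HGA 10 was lowest for the lipid and peroxisome genes SCD (2208 CPM), CIDEA (387 CPM), ACSL1 (80.1 CPM), ECHDC1 (28.4 CPM), FDFT1 (83.9 CPM), HAO2 (33.6 CPM), DHRS4 (3.87 CPM) and ACOX2 (0 CPM). It was lowest for the mitochondrial genes ECI1 (13.8 CPM), ACAT1 (100.7 CPM) and UQCRFS1 (74.9 CPM). It was also lowest for KRT79 (39.2 CPM), LGALS7 (37.9 CPM), TGM5 (7.75 CPM), CLDN4 (77.0 CPM), ERBB3 (8.61 CPM), IRX2 (102.9 CPM) and AQP1 (6.46 CPM). It was highest for ACADM (650.4 CPM), E2F1 (12.9 CPM), SIX4 (17.6 CPM) and RPS28 (19994 CPM).

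HGA 4 was highest for CCND3 (777 CPM) and BOC (61.3 CPM) and lowest for CCND2 (10.8 CPM), HOXD9 (30.4 CPM), NTRK2 (26.6 CPM) and TFAP2B (24.7 CPM). HGA 9 was lowest for LPIN2 (6.60 CPM), PTCH1 (0 CPM), STARD4 (0 CPM) and SLC12A2 (0.440 CPM). HGA 8 was highest for CD74 (240.1 CPM), HGA 2 lowest for CPT1B (0.459 CPM) and HGA 5 lowest for WNT3 (1.07 CPM).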

How the results depend on the processing

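The number of genes called stayed within 1.5 times of 3032 with other normalizations, filters, adjustments and covariates and when each tumor was left out in turn (2828 to 3373 called). It fell to 1404 (685 higher and 719 lower in HGA) when the fold itself was tested against a log2FC of 1, and with DESeq2 2367 genes were lower. Within extraction batches it was 262 (160 higher, 102 lower), 637 (347 and 290) and 338 (220 and 118), with 5 or 6 tumors each. Without a filter on low counts, 1849 genes had at most 3 counts in every AGASAC and 2420 in every HGA; with 1 tumor left out the latter number was 31 to 81. With library size alone, 33.3% of the calls were higher in HGA, against 50.2%. Of the genes named as called, APOC1 turned its direction, at −0.0244 within the batch of 2 HGA and 3 AGASAC. Sign changes of genes called in neither fit were not counted. An example is MC5R, at 1.22 in the main fit, −0.298 without HGA 4 and −0.312 with neutered or intact as a covariate. Same-numbered tumors came from different dogs, and their deviations were not correlated (−0.045 to 0.045 over 10 pairs); with a replicate block, 2543 genes were called (1315 higher, 1228 lower), against 2900 in the same 20 tumors without it, an alternative added after seeing the data. No HGA correlated best with its own number. Genes below about 1 to 2 CPM could not be told from 0 at this depth, and 12462 genes were not tested. The causes were not tested.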
